A study of Mus musculus with 16 samples.

Results

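The transforming growth factor β (TGF-β) and SMAD genes described here are Tgfb1, Tgfbr1, Tgfbr2, Smad2, Smad3, Smad4, Smad7, Ski, Skil and Id1. They were chosen by symbol as the ligand, receptors, SMAD proteins, co-repressors and a target of this pathway. No value enters this rule, but the choice was made with earlier results of these data known. All 10 were found among the 46078 genes of the count table. RNA-Seq libraries came from pools of 30 HSCs (LSK CD48-CD150+) of untreated C57/Bl6 mice, taken either from bone-associated (endosteal) or from flushed (central) BM of the long bones. The mice were WT or Gfra2-/-, the latter lacking the neurturin receptor GFRα2 in all their cells, niche cells included, and their ages are not given in the sources used here. Of the 15 libraries used, 4 were WT endosteal, 4 WT central, 4 Gfra2-/- endosteal and 3 Gfra2-/- central, and the libraries of a group are called A to D in the order of the table.

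TGF-β is secreted in a latent form, and once freed it binds the type II receptor, which recruits and phosphorylates the type I receptor. The active receptors phosphorylate SMAD2 and SMAD3, which bind SMAD4 and act on genes in the nucleus. The inhibitory SMAD7 blocks the receptors, and SKI and SKIL hold SMAD complexes in a repressive state. In bone marrow, TGF-β is known as a signal that keeps HSCs quiescent, much of it activated by non-myelinating Schwann cells that follow autonomic nerve fibres.

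Libraries differed in depth along the groups of the design. Between 826487 and 18550008 reads fell on genes, and WT central libraries were the shallowest, with 826487 to 3367289 reads against 4416648 to 14003634 in WT endosteal libraries. WT central libraries A and C had under 1500000 reads on genes. The study set this number as a cut-off for uniquely mappable reads, which also include reads outside genes. Whether these libraries pass the study's own cut-off was not checked. The spike-in share was at most 0.5% in 4 libraries, 1 of each group (libraries D, and C in Gfra2-/- central HSCs). Counts of Gfra2 were 0, 0, 0 and 1 in WT endosteal libraries A to D and 0, 0, 4 and 0 in WT central ones. They were 2, 47, 1 and 9 in the libraries labelled Gfra2-/- from endosteal BM, and 0, 1 and 0 in those from central BM. In raw counts, endosteal libraries B and D labelled Gfra2-/- exceeded every WT library, but at 2.37 and 0.789 CPM they were below the 5.36 CPM that 4 counts make in WT central library C, the shallowest. The counts cover the whole gene and would include reads from outside the deleted part, and with 0 or 1 count in 7 of 8 WT libraries Gfra2 could not check the labels. Several results that rest on this group are also given without libraries B and D. All 9 markers of the HSC gate and identity were detected in each group, with a summed level of 1830 to 4040 CPM (counts per 1000000 of the TMM-normalized total), while Cd48, which the gate excludes, was at 0 to 17.4 CPM. The endosteal library D labelled Gfra2-/- had 1820 CPM over 5 B cell markers and 660 CPM over 7 erythroid markers, and WT central library C had 2980 CPM over 8 myeloid markers, 3 of which (Mpo, Elane and Ctsg) were at 0 in all WT central libraries. Fewer cells with a transcript and fewer transcripts per cell cannot be told apart in pools.

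The results turn most on Smad3, Tgfbr2 and Ski, and up to 250 bases upstream of their start sites are shown to place them on the genome and to let the letters that SMAD proteins prefer be read. Sequences are those of RefSeq (GRCm38.p6), 5′ to 3′ on the strand of the gene. Capitals mark the SMAD box CAGAC or its reverse complement GTCTG, and the GC-rich element GGCGC or its reverse complement GCGCC, whose matches can overlap.
Smad3, chr9:63757995-63758244, minus strand: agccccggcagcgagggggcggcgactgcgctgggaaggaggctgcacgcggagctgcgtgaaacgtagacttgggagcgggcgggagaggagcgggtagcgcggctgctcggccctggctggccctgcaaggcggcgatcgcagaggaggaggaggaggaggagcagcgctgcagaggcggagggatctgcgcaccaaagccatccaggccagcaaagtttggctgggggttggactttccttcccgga
Tgfbr2, chr9:116175364-116175613, minus strand: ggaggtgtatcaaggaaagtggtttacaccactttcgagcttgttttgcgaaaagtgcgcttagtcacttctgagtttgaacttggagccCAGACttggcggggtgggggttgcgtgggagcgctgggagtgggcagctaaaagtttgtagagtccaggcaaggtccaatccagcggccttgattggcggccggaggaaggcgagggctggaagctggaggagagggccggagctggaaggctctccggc
Ski, chr4:155222593-155222785, minus strand: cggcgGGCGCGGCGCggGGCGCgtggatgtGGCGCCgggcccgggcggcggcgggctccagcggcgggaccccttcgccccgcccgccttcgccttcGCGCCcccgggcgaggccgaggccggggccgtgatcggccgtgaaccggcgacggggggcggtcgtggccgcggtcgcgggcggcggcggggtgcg
Smad3 had 0 matches to either motif in this window and a GC content of 69.2%. Tgfbr2 had 1 SMAD box and 0 GC-rich elements, at a GC content of 58.4%. Ski had 0 SMAD boxes and 7 GC-rich elements in a window of 250 bases with 87.6% GC. The last 57 bases of that window lie inside the gene as GENCODE places it and are not shown, and 6 of the 7 elements are in the 193 bases shown. Of 32851 such windows over all genes, 42.2% held a SMAD box and 32.0% the GC-rich element, with a median GC content of 52.4%. The palindrome of 2 boxes, GTCTAGAC, was in 0.167% of all windows and in none of the 6 windows of members (Tgfb1, Tgfbr1 with 2 start sites, Tgfbr2, Smad3 and Ski). A match, or its absence, says only that these letters are or are not in this window.

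Tgfb1 (ENSMUSG00000002603, chr7:25687002-25705077 on GRCm38), the ligand, was on average over the groups the lowest of the 10 per length. Its level was 1.46, 10.9, 17.0 and 7.69 CPM in WT endosteal libraries A to D and 9.05, 3.73, 49.6 and 0.674 CPM in WT central libraries, the last from 2 counts. In libraries labelled Gfra2-/- it was 2.44, 14.9, 1.04 and 1.58 CPM in endosteal and 3.803, 8.13 and 10.2 CPM in central HSCs. Within each group its highest library was far above its lowest, and all groups overlapped.

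Tgfbr1 (ENSMUSG00000007613, chr4:47353222-47414931), the type I receptor kinase, was at 145, 57.4, 106 and 5.16 CPM in WT endosteal and at 49.8, 40.7, 103 and 20.2 CPM in WT central libraries. The Gfra2-/- libraries had 50.3, 66.0, 76.6 and 30.8 CPM in endosteal and 149, 87.4 and 47.9 CPM in central HSCs. The groups overlapped throughout, and the lowest value, in WT endosteal library D, came from 63 counts in a library of 11685985 reads.

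Tgfbr2 (ENSMUSG00000032440, chr9:116084293-116175360), the type II receptor that binds the ligand, was at 22.2, 25.9, 103 and 50.6 CPM in WT endosteal and at 28.1, 46.3, 8.04 and 13.1 CPM in WT central libraries. It reached 78.1, 7.62, 60.2 and 72.2 CPM in endosteal and 128, 53.8 and 51.9 CPM in central libraries labelled Gfra2-/-. All 3 central Gfra2-/- libraries lay above all 4 central WT libraries, by a narrow gap between 51.9 and 46.3 CPM. In the endosteal group labelled Gfra2-/-, library B was the only one under 60 CPM.

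Smad2 (ENSMUSG00000024563, chr18:76241580-76310963), a receptor-activated SMAD, was at 42.2, 25.9, 102 and 48.3 CPM in WT endosteal and at 67.0, 32.3, 44.2 and 10.4 CPM in WT central HSCs. It was at 33.9, 20.9, 91.9 and 128 CPM in endosteal and at 31.9, 57.0 and 42.0 CPM in central HSCs of the group labelled Gfra2-/-. No group stood apart from another.

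Smad3 (ENSMUSG00000032402, chr9:63646767-63757994), the other receptor-activated SMAD, was at 25.3, 25.1, 83.7 and 48.5 CPM in WT endosteal and at 202, 61.2, 196 and 162 CPM in WT central HSCs. Only WT endosteal library C exceeded a WT central library, and it exceeded only library B. Endosteal libraries labelled Gfra2-/- were at 60.1, 51.9, 97.7 and 212 CPM and central ones at 95.3, 81.4 and 80.4 CPM. The 3 central Gfra2-/- libraries were the most alike of any member in any group, with an SD of 8.32 CPM around a mean of 85.7 (coefficient of variation 9.71%).

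Smad4 (ENSMUSG00000024515, chr18:73639009-73703780), the common partner of the receptor-activated SMADs, was at 128, 18.6, 78.4 and 93.1 CPM in WT endosteal and at 432, 195, 103 and 85.6 CPM in WT central HSCs. Endosteal libraries labelled Gfra2-/- had 191, 102, 53.8 and 64.0 CPM, and central ones 98.3, 77.5 and 201 CPM. The highest WT central value came from library A, which had under 1500000 reads on genes, with 477 counts.

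Smad7 (ENSMUSG00000025880, chr18:75367529-75395935), the inhibitory SMAD that TGF-β itself induces, was at 45.1, 31.6, 5.27 and 19.7 CPM in WT endosteal and at 9.96, 18.3, 25.5 and 15.8 CPM in WT central HSCs. It was at 16.4, 39.7, 13.4 and 11.04 CPM in endosteal and at 18.3, 26.8 and 5.01 CPM in central libraries labelled Gfra2-/-. Its group means, 25.4, 17.4, 20.2 and 16.7 CPM in the same order, were closer together than the libraries within any group.

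Ski (ENSMUSG00000029050, chr4:155154075-155222592), a co-repressor that binds SMAD complexes, was at 127, 73.5, 95.1 and 74.9 CPM in WT endosteal and at 199, 297, 87.2 and 149 CPM in WT central HSCs. Endosteal libraries labelled Gfra2-/- had 119, 33.4, 44.3 and 41.4 CPM and central ones 130, 112 and 220 CPM. In both genotypes most central libraries were above most endosteal ones, with WT central C (65 counts) and endosteal A of the Gfra2-/- group lying among the libraries of the other compartment.

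Skil (ENSMUSG00000027660, chr3:31095058-31122577), the related co-repressor also called SnoN, was at 7.55, 41.7, 25.5 and 8.26 CPM in WT endosteal and at 15.4, 2.80, 68.4 and 13.8 CPM in WT central HSCs. In the libraries labelled Gfra2-/- it was at 71.4, 51.2, 15.04 and 37.7 CPM in endosteal and at 39.5, 28.2 and 5.52 CPM in central HSCs. The WT central libraries alone spanned nearly the whole range of the 15.

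Id1 (ENSMUSG00000042745, chr2:152736251-152737410), an inhibitor of helix-loop-helix factors that BMP and TGF-β signals can induce, was the member with most libraries near 0. WT endosteal libraries A to D had 6, 1, 0 and 30 counts, or 1.46, 0.0666, 0 and 2.46 CPM, where 0 counts allow up to 0.273 CPM. WT central libraries had 47, 5, 0 and 66 counts, or 42.5, 1.55, 0 and 22.2 CPM, where 0 counts in the shallowest library allow up to 4.02 CPM. The libraries labelled Gfra2-/- had 2.50, 0.555, 7.52 and 16.9 CPM in endosteal and 12.7, 21.4 and 15.3 CPM in central HSCs. Id1 was thus above 12 CPM in every central Gfra2-/- library and below 3 CPM in every WT endosteal library. These groups differ in both genotype and compartment, and no test compared them. How many other genes separate these groups was not counted. Groups that differ in genotype alone or in compartment alone overlapped.

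**Figure D1:**
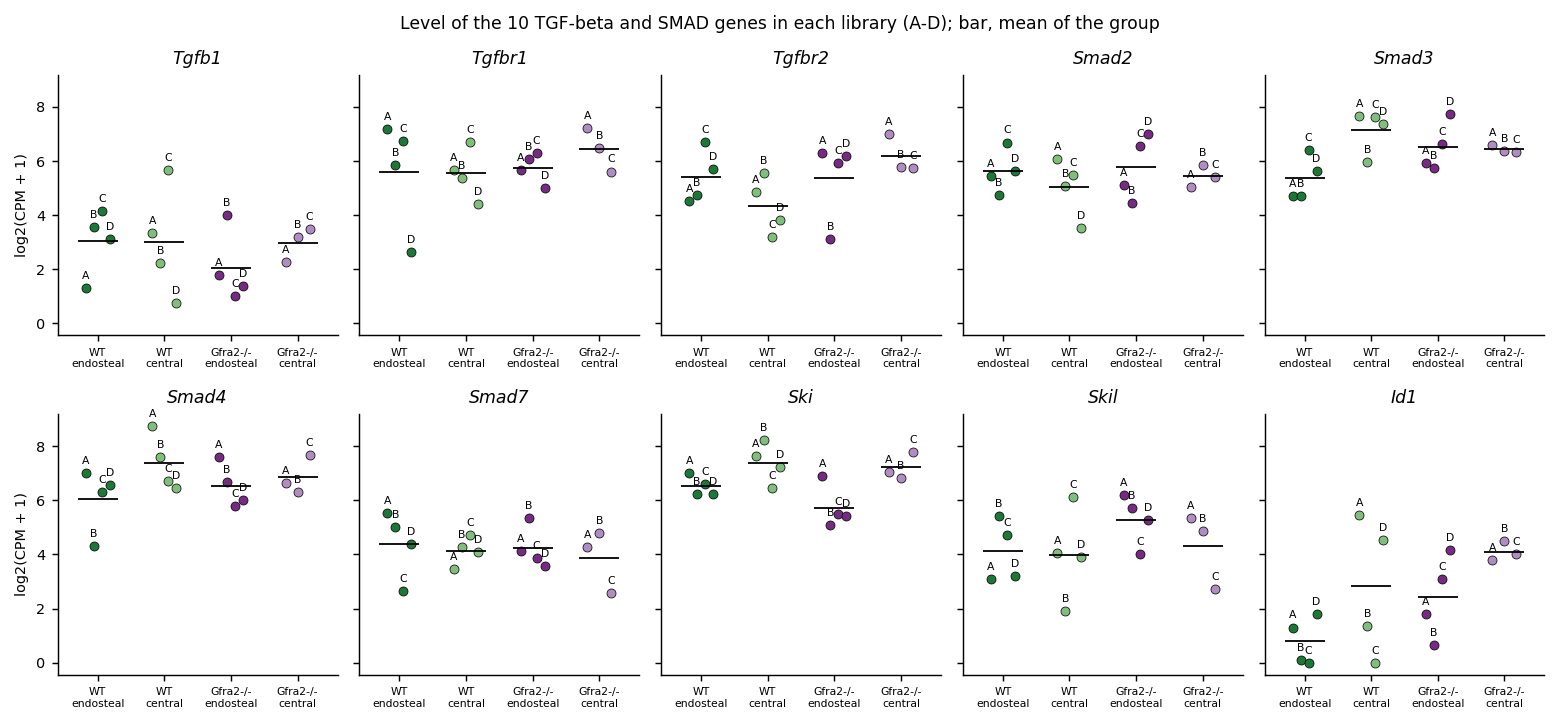
Level of each member as log2(CPM + 1) in the 15 libraries, 1 panel per gene and 1 column per group; letters name the libraries, and bars are means of the plotted log2 values. The mean of Smad3 is lowest in WT endosteal libraries, which overlap with every other group. Ski is lower in endosteal than central libraries of both genotypes apart from single libraries, and Id1 spreads from 0 to 42.5 CPM.

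Per length, which allows levels to be compared between genes, Smad4 came first with 34.5 CPM per kb of exon (mean of the 4 group means), ahead of Ski with 22.0, Smad3 with 17.7, Tgfbr1 with 10.8, Id1 with 8.82, Tgfbr2 with 6.32, Smad2 with 5.85, Smad7 with 4.41, Skil with 2.94 and Tgfb1 with 1.85. Smad4 was above Ski in 12 of 15 libraries, and each other gene was above the next in this order in 5 to 10 of 15, so that neighbours below Smad4 did not differ beyond the spread over libraries. Id1 moved most in this order: it was 10th in WT endosteal HSCs with 0.858 ± 1.02 CPM per kb (SD, n = 4) and 4th in WT central HSCs with 14.3 ± 17.3 (SD, n = 4). Smad4 was first in each of the 4 groups.

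Variation within groups was large for all members. The median coefficient of variation over the members was 68.3% in WT endosteal, 69.1% in WT central, 66.3% in endosteal and 48.3% in central libraries labelled Gfra2-/-. For all genes of 5 to 200 CPM it was 61.3%, 76.4%, 54.9% and 51.4%. The members were therefore about as variable between pools as other genes of their level, with Tgfb1 at 145% in WT central HSCs and Smad3 at 9.71% in Gfra2-/- central HSCs as the extremes.

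The first comparison addresses whether HSCs of endosteal and central BM differ in WT mice. Smad3, Smad4 and Ski were lower in endosteal than in central HSCs, by about 1 to 1.79 on the log2 scale, but 0 of the 9 members tested passed a false discovery rate (FDR) of 10% in edgeR, as did 0 of 11181 genes (0%). At an unadjusted p under 0.05, 3 members were lower and 0 higher in endosteal HSCs, against 7.89% of all genes tested, and 0 members had groups that did not overlap, against 6.36% of all genes. Id1 was left out by the filter on low counts.

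Smad3 averaged 45.7 ± 27.6 CPM (SD, n = 4) in WT endosteal and 155 ± 65.1 CPM (SD, n = 4) in WT central HSCs, and the log2 fold change was -1.79 (SE 0.57, edgeR adjusted p = 0.481). In DESeq2, which calls 4.49% of all genes in this comparison, Smad3 was the only member that passed, with a log2 fold change of -1.90 and an adjusted p = 0.0636, and so its lower level in endosteal HSCs is a call of 1 of 2 tests. The edgeR fold change was -1.84 within the libraries with over 0.5% spike-in reads; the remaining WT libraries D, 1 per group, had 48.5 and 162 CPM. Without the 2 shallow central libraries it was -1.30. The 2 shallow libraries also held the largest Smad3 values, and WT central library C, at 196 CPM, had the 2980 CPM of myeloid markers. In library C this sum was mostly Lyz2, at 2440 CPM, with Ly6c2 at 358 and S100a8 and S100a9 at 1.34 and 4.02 CPM. WT central library D, at 162 CPM of Smad3, had 864 CPM of S100a8 and 796 CPM of S100a9. Other myeloid markers did not go with these in library D, where Prtn3 was at 137 CPM, the lowest of its group, and Ly6c2 at 2.70 CPM. Mpo, Elane and Ctsg were at 0 there. With 388 CPM, library D also had the highest sum over the B cell markers in its group. The part of depth and of these markers in the result was not tested.

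Smad4 averaged 79.5 ± 45.5 CPM (SD, n = 4) in WT endosteal and 204 ± 159 CPM (SD, n = 4) in WT central HSCs, with a log2 fold change of -1.38 (SE 0.63, adjusted p = 0.626 in edgeR). WT central library A carried much of this difference: without it, the log2 fold change was -0.69, without both shallow libraries -0.84, and relative to the median of all genes under spike-in scaling -0.56. Ski averaged 92.7 ± 25.2 and 183 ± 88.7 CPM (SD, n = 4 each), with a log2 difference of -0.998 (SE 0.44, adjusted p = 0.613 in edgeR), and -0.66 without WT central library B. Neither passed in DESeq2, with an adjusted p = 0.313 for Smad4 and 0.229 for Ski. The other 6 members tested had log2 fold changes between -0.75 (Tgfb1) and 1.05 (Tgfbr2). The median over the 9 members was -0.28 against 0.03 over all genes tested.

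The same comparison in mice labelled Gfra2-/- put Ski lower in endosteal HSCs again, with the other members on both sides of 0. Ski averaged 59.5 ± 39.9 CPM (SD, n = 4) in endosteal and 154 ± 58.0 CPM (SD, n = 3) in central HSCs, a log2 fold change of -1.38 (SE 0.51, adjusted p = 0.999 in edgeR). It was the only 1 of 10 members at an unadjusted p under 0.05, against 4.79% of all genes. In edgeR 0 of 10 members and 0 of 13860 genes (0%) passed a 10% FDR, 0 members passed in DESeq2 against 2.75% of all genes, and 0 had groups apart against 7.34%. Without endosteal libraries B and D the log2 fold change of Ski was -0.92, and within the libraries with over 0.5% spike-in reads it was -0.87. Without endosteal library A, which had the highest Ski level and, with 765 CPM, the highest sum over 7 megakaryocyte markers, it was -1.96; the part of these markers was not tested.

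Smad3, in contrast to its values in WT mice, was 0.30 higher on the log2 scale in endosteal than in central HSCs labelled Gfra2-/- (SE 0.51, adjusted p = 0.999 in edgeR), and -0.12 without endosteal libraries B and D. The remaining members lay between -1.26 (Id1) and 0.85 (Skil). The median over the 10 members was -0.40 against 0.03 over all genes.

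**Figure D2:**
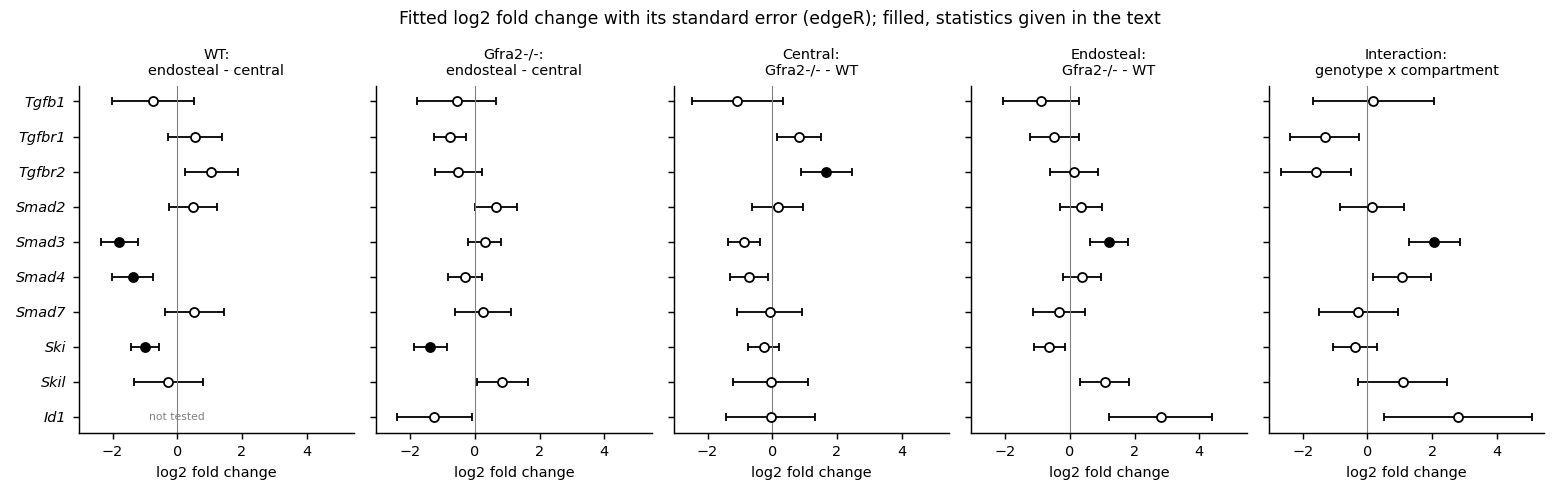
Log2 fold change of each member with its standard error in the 4 comparisons and the interaction, from edgeR; filled points are the pairs of gene and comparison whose statistics are given in full. Smad3 lies at -1.79 between WT compartments and at 2.06 in the interaction, and Ski lies below 0 between compartments in both genotypes.

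Among central HSCs, Tgfbr2 was the member that separated the genotypes: it averaged 78.0 ± 43.5 CPM (SD, n = 3) in Gfra2-/- and 23.9 ± 17.2 CPM (SD, n = 4) in WT libraries, and the log2 fold change was 1.67 (SE 0.79, adjusted p = 0.585 in edgeR). It was 1 of 10 members whose groups did not overlap, against 12.4% of all genes tested, so that such a gap was common here. In edgeR 0 of 10 members passed a 10% FDR, against 0.051% of 11772 genes, and 0 were at an unadjusted p under 0.05, against 8.73%. DESeq2 passed 0 members, against 5.14% of genes, with an adjusted p = 0.276 for Tgfbr2. Without Gfra2-/- central library A the log2 fold change of Tgfbr2 was 1.11, and within the libraries with over 0.5% spike-in reads it was 1.65. WT central libraries C and D, with 8.04 and 13.1 CPM, had 6 and 39 counts of Tgfbr2, and after all libraries were thinned to the shallowest it was 1.26. The other receptor, Tgfbr1, was 0.81 higher on the log2 scale (SE 0.68) and did not pass. Tgfb1, Smad3 and Smad4 lay at -1.09, -0.88 and -0.72, and the median over the members was -0.07 against 0.03 over all genes.

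Among endosteal HSCs, Smad3 had the smallest p of the 10 members, with 105 ± 73.7 CPM in libraries labelled Gfra2-/- and 45.7 ± 27.6 CPM in WT libraries (SD, n = 4 each), which gave a log2 fold change of 1.22 (SE 0.59, adjusted p = 0.747 in edgeR). In edgeR 0 of 10 members and 0 of 12970 genes (0%) passed a 10% FDR, and 0 members were at an unadjusted p under 0.05 against 6.69% of genes. DESeq2 passed 0 members against 3.71% of genes, and 0 members had groups apart against 6.24%. The Smad3 difference rested in large part on 1 library: without endosteal library D labelled Gfra2-/-, at 212 CPM, it was 0.60, and without libraries B and D it was 0.78. That library also had the highest Smad2 and Id1 levels of its group, 128 and 16.9 CPM, beside the B cell and erythroid markers given above, whose part was not tested. Id1 had the largest fitted difference, 2.80 on the log2 scale, with an SE of 1.58, and 2.32 without libraries B and D. Skil was at 1.07, and the other members were between -0.89 (Tgfb1) and 0.37 (Smad4). The median over the members was 0.23 against 0.03 over all genes.

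Whether the compartments differed to another extent in the 2 genotypes was put to an interaction test in the 15 libraries together, where a positive value is a larger endosteal minus central difference in the libraries labelled Gfra2-/-. Smad3 had a log2 difference of 2.06 (SE 0.79, adjusted p = 0.592 in edgeR) and was the only 1 of 10 members at an unadjusted p under 0.05, against 6.97% of all genes. In edgeR 0 of 10 members and 0 of 15416 genes (0%) passed a 10% FDR, and DESeq2 passed 0 members against 1.62% of genes, with an adjusted p = 0.21 for Smad3. The Smad3 value was 1.59 without endosteal libraries B and D labelled Gfra2-/-, 1.58 without the 2 shallow libraries and 1.39 within the libraries with over 0.5% spike-in reads. Smad4 was at 1.07 (SE 0.89) and Ski at -0.39 (SE 0.68). The compartment and genotype comparisons share their libraries, so their values for a member are not independent of each other.

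**Figure D3:**
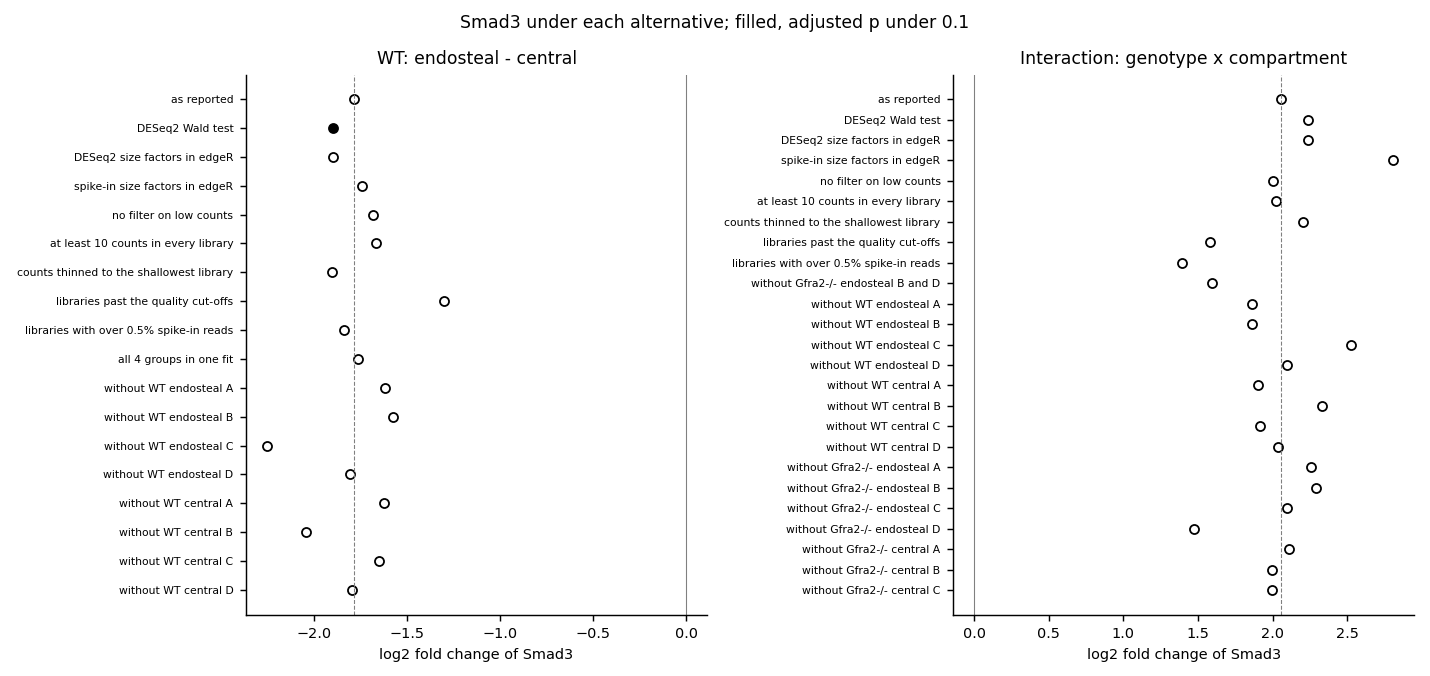
Log2 fold change of Smad3 between WT compartments (left) and in the interaction (right) under each way of processing the counts and with each library left out; filled points have an adjusted p under 0.1 and the dashed line is the value reported. All values keep their sign, from -2.25 to -1.30 on the left and from 1.39 to 2.81 on the right, and only DESeq2 in WT mice is filled. Values under spike-in scaling are relative to the median of all genes, while their fill is by the adjusted p of the values before this.

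Ratios of partner genes within a library do not depend on how libraries are scaled to each other. They were computed from counts per kb of exon, after the levels above had been seen, and are given as a description with no test. How many other pairs of genes have ratios that separate the groups was not counted. Smad3 over Smad2, the pair of receptor-activated SMADs, was 0.952, 1.54, 1.30 and 1.59 in WT endosteal libraries A to D and 4.77, 3, 7.01 and 24.6 in WT central libraries. Every WT central library thus had a higher share of Smad3 than every WT endosteal library. Endosteal libraries labelled Gfra2-/- had ratios of 2.81, 3.92, 1.68 and 2.62, all above the WT endosteal values, and the central ones had 4.73, 2.26 and 3.03, which overlapped with them. The ratio of 24.6 came from 482 counts of Smad3 and 31 counts of Smad2.

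Ski exceeded Skil per length in all 15 libraries. The ratio was 29.4, 3.07, 6.49 and 15.8 in WT endosteal and 22.6, 185, 2.22 and 18.7 in WT central libraries, with 9 counts of Skil behind the value of 185. It was 2.90, 1.14, 5.13 and 1.91 in endosteal and 5.74, 6.92 and 69.5 in central libraries labelled Gfra2-/-, so all 3 central libraries were above all 4 endosteal ones in this genotype. Tgfbr2 over Tgfbr1, the type II over the type I receptor, was 0.122, 0.360, 0.780 and 7.83 in WT endosteal libraries, and 0.0622 to 0.908 in WT central, 0.0921 to 1.87 in endosteal and 0.491 to 0.864 in central libraries labelled Gfra2-/-. No group stood apart in the receptor ratio. Smad4 over Smad2 and Smad7 over Smad3 were also computed, and their groups overlapped. Between WT compartments, Smad4 over Smad2 was 1.71 to 7.17 in endosteal and 5.52 to 19.4 in central libraries. Smad7 over Smad3 was 0.0772 to 2.18 in endosteal and 0.0605 to 0.367 in central libraries.

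**Figure D4:**
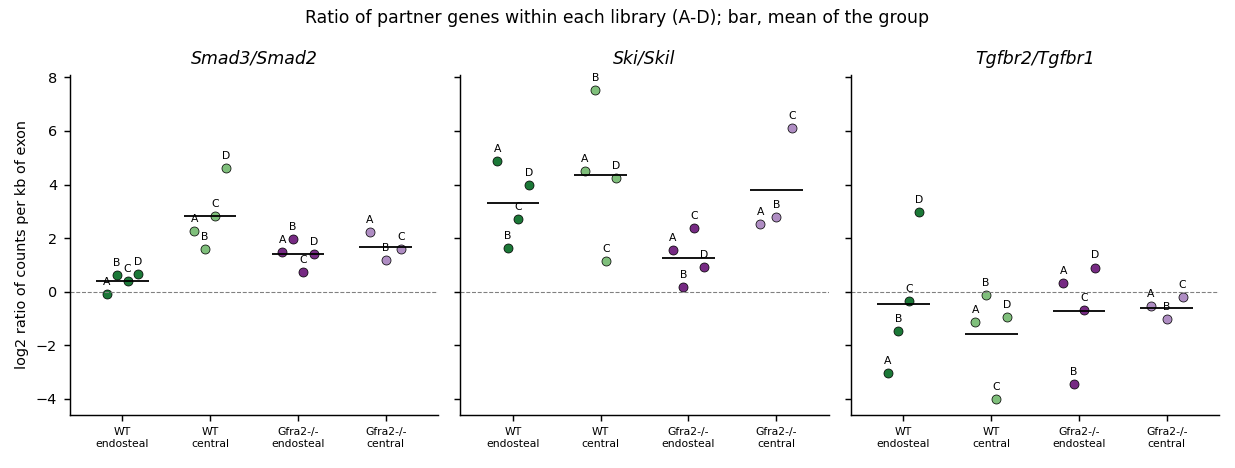
Log2 ratio of counts per kb for Smad3 over Smad2, Ski over Skil and Tgfbr2 over Tgfbr1 in each library; letters name libraries, bars are group means of the log2 ratio and the dashed line is equal level. The Smad3 over Smad2 ratio is between 0.952 and 1.59 in WT endosteal libraries and between 3 and 24.6 in WT central libraries.

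Members did not vary together as a group over the 15 libraries. Pearson's r of log2(CPM + 1) over the 45 pairs of members had a median of 0.0217, with 26 pairs above 0. Smad4 and Ski had the highest value, 0.612 (Spearman's rho 0.682), followed by Smad3 and Id1 with 0.543 (rho 0.49), and Ski and Skil had the lowest, -0.559 (rho -0.532). The libraries share depth and group, and the log2 number of reads had an r of -0.489 with Smad3, -0.461 with Ski, -0.46 with Smad4 and 0.49 with Tgfbr2, so these are descriptions of 15 libraries only.

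Of 15416 genes compared over these 15 libraries, the gene most like each member was Fn1 for Tgfb1 (r 0.799, rho 0.66), Farsb for Tgfbr1 (r 0.826, rho 0.871), Ipo4 for Tgfbr2 (r 0.872, rho 0.8), Zfp282 for Smad2 (r 0.804, rho 0.689) and 2610021A01Rik for Smad3 (r 0.821, rho 0.818). It was Bcr for Smad4 (r 0.823, rho 0.711), Zfp653 for Smad7 (r 0.815, rho 0.771), Gnb2 for Ski (r 0.854, rho 0.832), Zfp263 for Skil (r 0.902, rho 0.875) and Tmem184c for Id1 (r 0.861, rho 0.798). None of these genes is another member.

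The other genes of the pathway were taken from a list of 75 genes in 8 groups by role, compiled by hand with earlier results of these data known. Of these, 46 were tested in every comparison and 18 in none for lack of counts, among them the ligands Tgfb2, Inhba, Bmp2 and Bmp6 and the target Ccn2. In edgeR 0 of them passed a 10% FDR in any of the 5 comparisons. At an unadjusted p under 0.05 there were 4 of 47 tested between WT compartments, 2 of 53 between Gfra2-/- compartments, 1 of 48 between central and 8 of 50 between endosteal genotypes, and 5 of 57 in the interaction, where 7.89%, 4.79%, 8.73%, 6.69% and 6.97% of all genes tested were. DESeq2 called 4, 2, 0, 2 and 2 of the list in the same order, against 4.49%, 2.75%, 5.14%, 3.71% and 1.62% of all genes. Groups did not overlap for 3 of 47, 3 of 53, 3 of 48 and 6 of 50 genes of the list in the 4 comparisons, in the same order. The shares over all genes tested were 6.36%, 7.34%, 12.4% and 6.24%.

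Between WT compartments, the target Id2, a relative of Id1, was at 0.244, 2.46, 5.72 and 1.96 CPM in endosteal and at 40.7, 63.1, 30.8 and 9.10 CPM in central libraries. These groups did not overlap, which held for 6.36% of all genes tested. The log2 fold change of Id2 was -3.78 (SE 1.14, edgeR adjusted p = 0.457, DESeq2 adjusted p = 0.00231). Ppm1a, a phosphatase that acts on SMAD2 and SMAD3, averaged 16.5 ± 6.45 and 70.2 ± 27.7 CPM (SD, n = 4 each), with a log2 difference of -2.11 (SE 0.68, edgeR adjusted p = 0.481, DESeq2 adjusted p = 0.00201). Strap, which helps SMAD7 to block the receptors, went the other way with 226 ± 82.6 and 61.4 ± 34.0 CPM (SD, n = 4 each), with a log2 difference of 1.87 (SE 0.49, edgeR adjusted p = 0.39, DESeq2 adjusted p = 0.0599). These 3 genes were called by DESeq2 and not by edgeR; the fourth that DESeq2 called was Itgb6, an integrin of TGF-β activation, which the filter of edgeR left out.

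Between compartments in libraries labelled Gfra2-/-, Pmepa1, a target that feeds back on the pathway, was counted 4, 1, 0 and 0 times in endosteal and 16, 80 and 11 times in central libraries (edgeR adjusted p = 0.896, DESeq2 adjusted p = 0.0758), and libraries A and C held 4 and 0 of these counts. Usp15, a deubiquitinase of the type I receptor, had a log2 fold change of 0.78 (SE 0.32) and Smad1, a SMAD of BMP signals, -1.13 (SE 0.57). Neither was called by either test. Without libraries B and D the values were 1.004 and -1.096, and without endosteal library C Usp15 was at 0.62. Smad1 was at -0.76 within the libraries with over 0.5% spike-in reads. Under spike-in scaling it was at -1.86, relative to the median of all genes as are all values under that scaling here. The second gene that DESeq2 called here was Acvr1, a type I receptor for BMPs, also left out by the filter of edgeR. Among central HSCs, the co-receptor Eng, also called endoglin, averaged 383 ± 104 CPM (SD, n = 3) in Gfra2-/- and 144 ± 53.8 CPM (SD, n = 4) in WT libraries. These groups did not overlap, which held for 12.4% of all genes tested. The log2 fold change of Eng was 1.38 (SE 0.39, edgeR adjusted p = 0.318, DESeq2 adjusted p = 0.129), and 1.06 in libraries past the quality cut-offs. Klf10, an early target of TGF-β, was at -1.20 (SE 0.60), and Pmepa1 at -2.995 (SE 1.498), without a call by either test. Klf10 was at -0.77 without WT central library C, -1.90 within the libraries with over 0.5% spike-in reads and -0.24 under spike-in scaling. Pmepa1 was at -1.53 without WT central library D and -1.17 within the libraries with over 0.5% spike-in reads, and under spike-in scaling it was at -4.92.

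Among endosteal HSCs, Id2 was at 27.6, 22.5, 13.8 and 62.1 CPM in libraries labelled Gfra2-/-, all above the WT values of 0.244 to 5.72 CPM. The log2 fold change was 3.59 (SE 1.04, edgeR adjusted p = 0.649, DESeq2 adjusted p = 0.00212) and 2.98 in edgeR without libraries B and D. Its interaction was 4.84 (SE 1.64, edgeR adjusted p = 0.539, DESeq2 adjusted p = 0.0399), and 4.21 in edgeR without the same libraries. Tgif2, a co-repressor of SMADs, had 0 counts in all 4 WT endosteal libraries and 19, 69, 18 and 77 counts in those labelled Gfra2-/-, which is at least 9.38-fold higher if each WT library is set at 3 counts (edgeR adjusted p = 0.392, DESeq2 adjusted p = 0.000292). Tgfbi, a secreted target named for its induction by TGF-β, averaged 18.9 ± 18.1 CPM in libraries labelled Gfra2-/- and 80.5 ± 14.5 CPM in WT libraries (SD, n = 4 each). The log2 fold change of Tgfbi was -2.09 (SE 0.75, edgeR adjusted p = 0.737). It was -4.05 without libraries B and D and -1.75 without endosteal library A labelled Gfra2-/-. In the interaction, DESeq2 called Id2 and Ppm1a (1.98 in edgeR, DESeq2 adjusted p = 0.0421). Strap was at -1.52 (SE 0.57) in edgeR without a call, and at -0.65 under spike-in scaling. Tgif2 was at 6.90 (SE 2.50, edgeR adjusted p = 0.586, DESeq2 adjusted p = 0.374), at 1.72 within the libraries with over 0.5% spike-in reads and at 10.7 under spike-in scaling.

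By role, the 3 other SMADs tested were all below 0 between endosteal genotypes, with a median log2 fold change of -0.634. They were also all below 0 between Gfra2-/- compartments, with a median of -0.764. The 8 receptors and co-receptors tested between endosteal genotypes had a median of -0.122. Of 6 other targets tested between central genotypes, 1 was above 0 and 5 below, with a median of -0.73. Of 9 nuclear partners, 7 were above 0 and 2 below in both the Gfra2-/- compartments (median 0.0601) and the endosteal genotypes (median 0.493). Between WT compartments, 5 of 6 genes of the SMAD-independent arm, such as Map3k7 and Mapk14, were above 0, with a median of 0.412, and 0 of them were at an unadjusted p under 0.05. These splits were picked from all roles and comparisons, rest on few genes each and were not tested. Of all genes tested, 51.4% to 51.6% were above 0 in the 4 comparisons. The medians over all pathway genes tested were -0.11, -0.06, -0.01 and -0.02 in the 4 comparisons, against 0.03 over all genes in each.

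**Figure D5:**
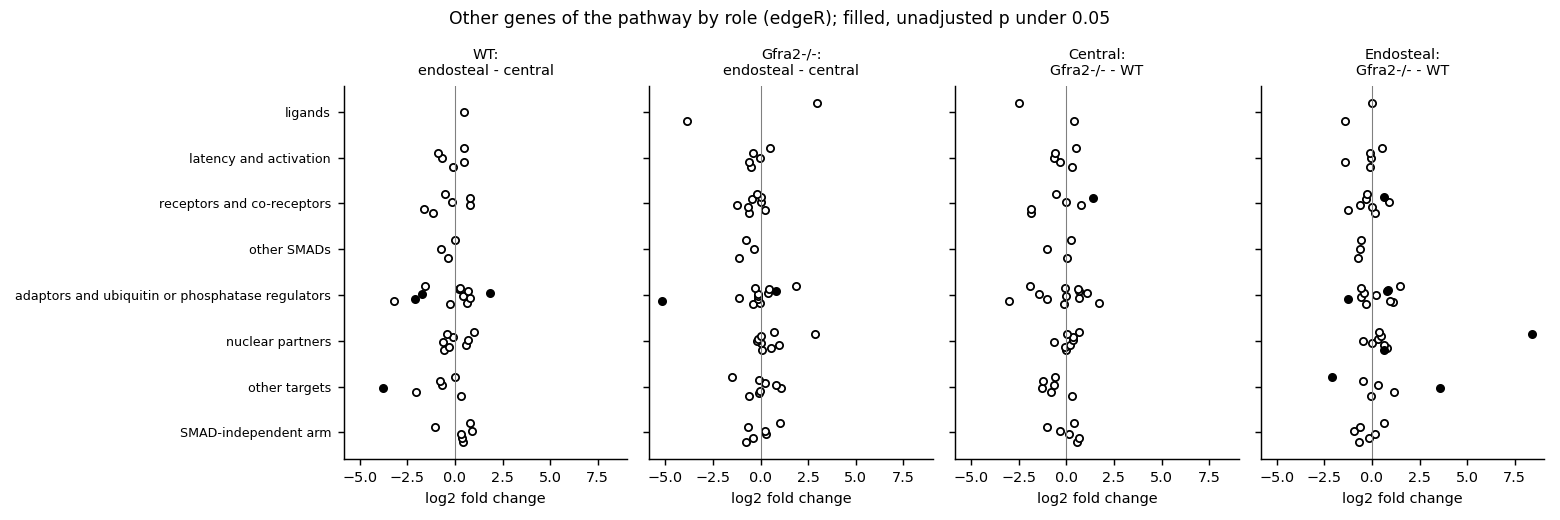
Log2 fold change of the other pathway genes tested in each of the 4 comparisons, by role; each point is a gene and filled points have an unadjusted p under 0.05. The groups by role lie around 0, and 4, 2, 1 and 8 points are filled from left to right.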

How the data were processed

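HSCs were profiled by RNA-Seq with Smart-seq2, in which cDNA of polyadenylated RNA is amplified by PCR. There are no molecular identifiers, and limits from counts cover counting error only. Reads (single-end) were aligned by the authors to GRCm38 (mm10 per the labels) with GSNAP, and the authors deposited counts per gene from htseq-count (HTSeq 0.5.3p3) without regard to strand, normalization or filter, for 46078 genes, 92 spike-in RNAs and 5 summary categories. The summary categories of reads on no gene or on several were 36.4% to 48.3% of the sum of these and the gene reads; they and the spike-ins stayed out of library sizes and tests. Of 16 samples in the labels, 15 columns were mapped to a group, and 1 column of per-sample values was not mapped and not used. Libraries have no replicate numbers in the table, and although the study calls them biological replicates, the labels do not say whether those of a group came from separate mice; p-values measure only the spread between libraries, which may be technical. No 2 libraries were identical. Positions and lengths came from GENCODE M21 (GRCm38), which holds 45143 of the genes.

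Counts were tested with edgeR 4.0.16 (R 4.3.3): filterByExpr, TMM, the quasi-likelihood test on the 2 groups compared, Benjamini-Hochberg adjustment over all genes tested and an FDR of 10%. An interaction was fitted over all 15 libraries. The script was tested on simulated data. DESeq2 1.42.0, which the study used, was an alternative; others were its size factors or spike-in size factors in edgeR, other filters, thinned counts, a 5% FDR, all groups in 1 fit, libraries past the quality cut-offs, libraries with over 0.5% spike-in reads, leaving out the 2 endosteal libraries labelled Gfra2-/- with more Gfra2 counts than any WT library, and each library left out. The quality cut-offs were applied here as over 1500000 reads on genes and a mitochondrial share under 20%. The study's cut-off on high coverage genes was not applied. Descriptions were made in Python 3.11.15 with pandas 2.3.3.

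All members were described in every group. Full statistics were given where a member's unadjusted p was under 0.05 or its groups did not overlap, otherwise for the member with the smallest p, and for up to 3 pathway genes per comparison with the smallest p; a member set beside these is given with its value for comparison. The most alike gene was the one with the highest Pearson's r. The members and lists were chosen with earlier results of these data known.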

Additional observations from a re-analysis of the deposited data

Results flagged for a closer look

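Among the levels of the 10 members in the 3 groups of 4 libraries, 2 libraries lay far from the other 3 of their group by Dixon's criterion, which flags about 1 in 20 groups by chance and was applied to 30. Tgfb1 was at 14.9 CPM in endosteal library B labelled Gfra2-/-, against 1.04 to 2.44 CPM in the others, in a library with 47 counts of Gfra2. Ski was at 119 CPM in endosteal library A of the same group, against 33.4 to 44.3 CPM in the others.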

How the results depend on the processing

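The number of members past a 10% FDR was 0 in 96 of 97 recomputations over the 5 comparisons, including each library left out, and the exception was DESeq2 between WT compartments with 1 (Smad3). For the pathway list it was 0 in 93 of 97, and the exceptions were DESeq2, with 4 between WT compartments, 2 between Gfra2-/- compartments, 2 between endosteal genotypes and 2 in the interaction. Fold changes were recomputed 391 times for the 22 pairs of gene and comparison picked by the rule above. Of these 391 values, 383 kept their direction and their side of the threshold, and 8 kept their direction and passed only in DESeq2. Here the direction under spike-in scaling is that relative to the median of all genes. Fold changes outside these pairs could reverse. Between WT compartments, Tgfb1 was at -0.75 and Skil at -0.28 in the main fit. In libraries past the quality cut-offs they were at 2.05 and 1.31. Under spike-in scaling the median of all genes shifted to 1.58, -0.46, 1.75, -0.28 and -2.18 (log2) in the 4 comparisons and the interaction. Fold changes under spike-in scaling were taken relative to this shift. Adjusted p and counts of genes passing under it belong to the values before the shift was taken off. Between WT compartments Smad4 and Ski, at -0.56 and -1.14 relative to the shift of 1.58, were above 0 before it was taken off. The count over all genes between WT compartments was 0, and it became 606 in DESeq2, 58 with no filter on low counts, 11 with at least 10 counts in every library, 4 with thinned counts, 22 with all 4 groups in one fit and 0 to 6 with a library left out, the 6 without WT endosteal library A. Between Gfra2-/- compartments it was 0, then 395 in DESeq2 and 15 with spike-in size factors. Among central HSCs it was 6, then 725 in DESeq2, 2 with spike-in size factors, 134 with no filter, 29 with at least 10 counts, 10 with thinned counts, 0 at a 5% FDR, 0 in libraries past the quality cut-offs, 1 in libraries with over 0.5% spike-in reads and 0 to 8 with a library left out: it was 0 without any of the 4 WT libraries or Gfra2-/- library A, and 1 without library B. Among endosteal HSCs it was 0, then 534 in DESeq2, 6 with spike-in size factors and 1 with all 4 groups in one fit, and in the interaction it was 0, then 240 in DESeq2 and 193 with spike-in size factors. The cause of these differences was not tested. The 40 group means of the members moved by less than 1 SD with CPM of the library total, and their order per length was the same with the longest transcript. No paired analysis was possible because the columns of the table carry no replicate numbers. The sample titles do number the samples of each group from 1 to 4, but no column could be tied to a numbered title. All comparisons therefore treat the libraries as unpaired. Whether equal numbers mark shared mice or a shared batch was not tested. The 4 libraries with at most 0.5% spike-in reads were 1 of each group, so a batch across the groups was not excluded. Depth limits WT central HSCs most, where Tgfb1, Tgfbr2, Smad7, Skil and Id1 had under 20 counts in at least 1 library.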
